A study of Mus musculus with 11 samples.

Results

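Keratins that mark the luminal layer of the mammary epithelium (Krt7, Krt8, Krt18 and Krt19) and keratins that mark its basal layer (Krt5, Krt14, Krt15 and Krt17) were examined in glands bearing PN1a or PN1b lesions. Members were all probe sets annotated to a single gene among these 8 symbols, which gave 12 of 12422 probe sets tested and 8 of 8251 genes. Of the 12, 6 belonged to the luminal keratins (1 for Krt7, 1 for Krt8, 2 for Krt18 and 2 for Krt19) and 6 to the basal keratins (1 each for Krt5, Krt14 and Krt15, and 3 for Krt17). PN1a (5 samples) and PN1b (6 samples) are premalignant outgrowth lines of Trp53-/- (p53-null) mammary epithelium of Balb/c background, taken from contralateral outgrowths of a single mouse and kept by serial transplantation. In every sample the p53-null epithelium grew in the cleared fat pad of a wildtype Balb/c female host, 3 weeks old at transplantation, and the whole gland was taken 8 weeks post-transplantation, so loss of p53 in the epithelium and wildtype host stroma were common to both groups. Each group stands for 1 outgrowth line, and no p53-intact gland was analysed here. Titles of PN1b 1 to 4 are number ranges, and whether these stand for pooled glands is not stated. The comparison addresses which transcripts differ between the lines while both are still hyperplastic.

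Keratins are the intermediate filament proteins of epithelial cells, and a filament needs a type I and a type II keratin in partnership. In the mammary gland, type II Krt8 pairs with type I Krt18 in luminal cells, where Krt7 (type II) and Krt19 (type I) are also found, while type II Krt5 pairs with type I Krt14 in basal and myoepithelial cells. Krt15 and Krt17 are further type I keratins of basal cells of stratified epithelia, and Krt17 is also known as a keratin of wounded and hyperproliferative epidermis. Ratios of luminal to basal keratins are used to describe which layer prevails.

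RefSeq promoter sequences (GRCm38.p6, 250 bases before to 50 after the annotated start) were matched for 5 of the 8 members, namely Krt5, Krt7, Krt8, Krt14 and Krt18. Those of Krt8 and Krt18 are shown because the values of these partners ran in parallel across the samples, and that of Krt7 because its values did not follow them. The Krt8 promoter is chr15:102004293-102004592 on the minus strand, that of Krt18 is chr15:102027966-102028265 on the plus strand, and that of Krt7 is chr15:101412153-101412452 on the plus strand. Capitals mark the TATA box letters TATAAA, the GC box letters GGGCGG, the E-box letters CACCTG or the AP-1 type letters TGANTCA, all searched on both strands.
Krt8: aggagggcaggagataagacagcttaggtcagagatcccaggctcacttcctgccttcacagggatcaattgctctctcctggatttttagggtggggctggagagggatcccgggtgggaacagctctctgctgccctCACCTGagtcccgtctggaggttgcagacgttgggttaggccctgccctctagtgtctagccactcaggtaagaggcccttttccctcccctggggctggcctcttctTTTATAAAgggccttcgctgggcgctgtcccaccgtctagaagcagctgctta
Krt18: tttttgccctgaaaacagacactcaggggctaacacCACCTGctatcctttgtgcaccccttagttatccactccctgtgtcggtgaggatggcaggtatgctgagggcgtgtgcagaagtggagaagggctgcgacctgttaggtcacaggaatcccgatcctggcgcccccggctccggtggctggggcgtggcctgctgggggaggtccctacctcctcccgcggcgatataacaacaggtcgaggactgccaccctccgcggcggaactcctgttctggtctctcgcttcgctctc
Krt7: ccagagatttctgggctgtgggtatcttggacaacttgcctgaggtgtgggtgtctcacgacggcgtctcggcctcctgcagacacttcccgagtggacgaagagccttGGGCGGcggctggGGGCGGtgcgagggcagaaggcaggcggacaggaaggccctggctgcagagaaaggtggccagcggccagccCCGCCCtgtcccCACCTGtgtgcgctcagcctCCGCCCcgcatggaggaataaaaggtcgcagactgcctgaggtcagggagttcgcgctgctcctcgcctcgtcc
CACCTG stood in all 3 windows and in that of Krt5, and 20.2% of all 32851 promoters of the same length hold it. TATAAA was found only at Krt8 among the matched members, on both strands in overlapping letters that span the annotated start, against 13.6% of all promoters. GGGCGG was found 4 times at Krt7 and in no other matched member, against 35.7% of all promoters. TGANTCA, held by 7.81% of all promoters, stood in none of the 5, and the window of Krt14 held none of the 4 motifs. A match is a description of the letters only.

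The deposited values are linear intensities from 1 to 1938, which the authors had modelled in dChip from perfect match minus mismatch probes and quantile normalized. Median intensity per sample was 8.57 to 9.51. PN1a 1 and 2 were less like the rest. Over all probe sets they correlated with PN1a 3 to 5 at r = 0.857 to 0.905, against 0.949 to 0.962 among PN1a 3 to 5 and 0.919 to 0.966 among PN1b. Their 18S rRNA control intensities were 119 to 276, against 3.07 to 32.7 in the other 9 samples, and their Gapdh 3'/5' ratios were 0.830 and 0.877, against 1.25 to 5.45. Their b-Actin 3'/5' ratios of 1.34 and 1.48 lay within the range of the other 9, at 1.31 to 4.76. Sample labels also end in 3 different ways, and what the endings stand for is not explained there or in the study's methods. All 5 PN1a samples and PN1b 5 and 6 share the first ending (label ending set 1), PN1b 2 alone has the second, and PN1b 1, 3 and 4 have the third. Values without PN1a 1 and 2, and within label ending set 1, are given beside results where they differ most. Epcam and Acta2, which mark epithelium and myoepithelium, had intensities of 23.3 to 109 and of 350 to 1097 over the 11 samples. Whole glands were lysed, so fewer cells of a type and less RNA per cell cannot be told apart.

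Among the 12 probe sets of these 8 keratins, 1 of the 2 for Krt19 passed the test, higher in PN1a, and it is a probe set that can also take up signal of related genes. Its call did not hold with the label ending set as a random block (limma adjusted p = 0.0732) or as a fixed block (limma adjusted p = 0.428). Krt19 and Krt17 were brighter in PN1a 3 to 5 than in any PN1b sample, while Krt8 and Krt18 were dimmer in 3 and 4 of the 5 PN1a samples than in any PN1b sample. Krt7 varied widely in both groups, and Krt5, Krt14 and Krt15 did not exceed 12.2 in any sample. In limma's fit over all probe sets (adjusted p under 0.05 and a fold of at least 1.5), 1 of the 12 keratin probe sets was called higher in PN1a and 0 were called lower, while 6 had an unadjusted p under 0.05. Over all 12422 probe sets 0.869% were called higher and 1.62% lower. Groups were completely separated for 0 of the 12 keratin probe sets, against 1.58% of all probe sets with every PN1a sample above and 2.38% with every PN1a sample below. The median log2 fold change of the 12 was 0.06, beside -0.01 over all probe sets.

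**Figure D1:**
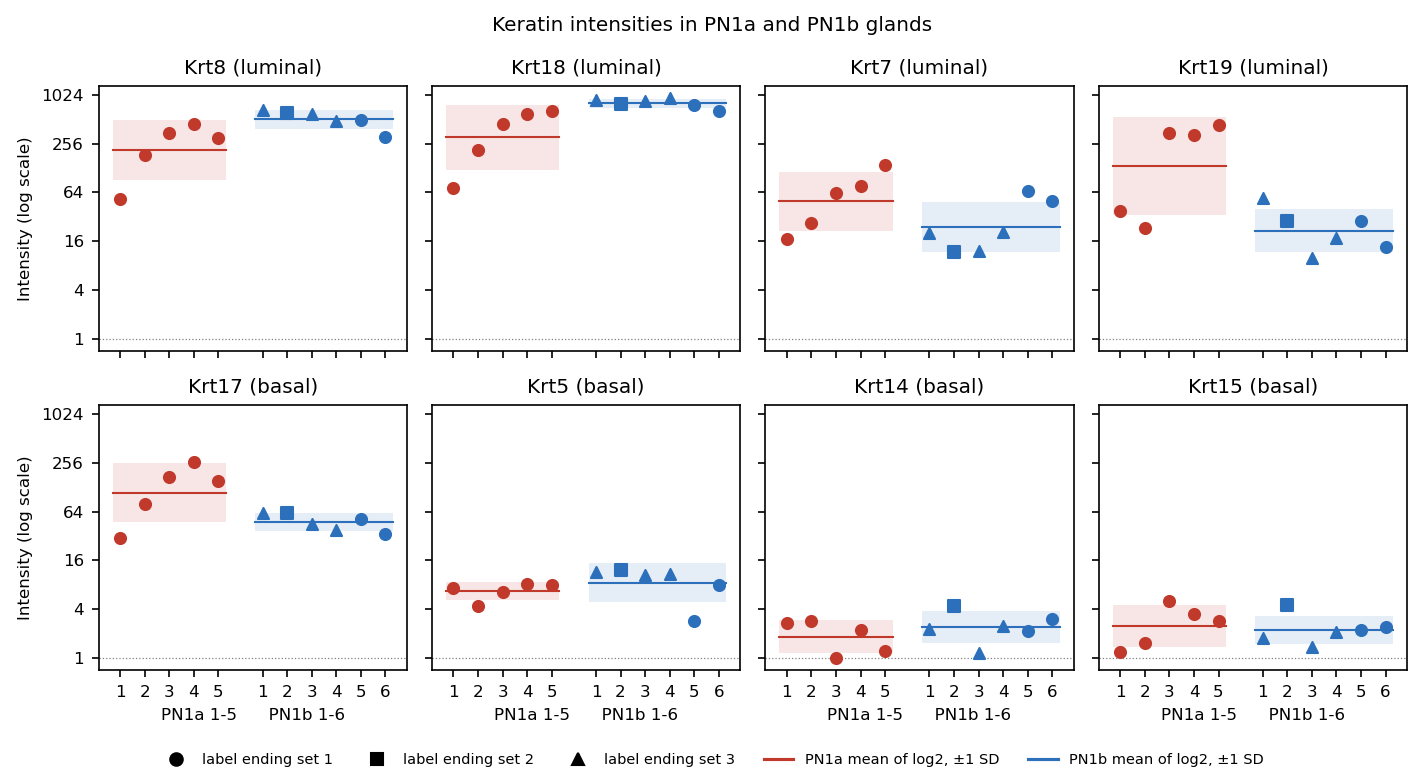
Intensity (log axis) of the leading probe set of each of the 8 keratins in 5 PN1a (red) and 6 PN1b (blue) samples, with the mean of log2 values as a line, ±1 SD as a band and the label ending set as the marker shape. Krt19 lay at 326 to 440 in PN1a 3 to 5 and at most 54.2 in the other 8 samples, whereas Krt14 and Krt15 did not exceed 5.06 in any sample.

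Krt8, the type II keratin of simple epithelia, had intensities of 52.7, 187, 347, 443 and 298 in PN1a 1 to 5. In PN1b 1 to 6 it was 657, 609, 588, 481, 501 and 307. PN1a 1 and 2 were the lowest samples, and PN1b 6 lay within the PN1a range, so the groups overlapped. Mean log2 intensity was 7.74 ± 1.22 in PN1a (SD, n = 5) and 8.99 ± 0.40 in PN1b (SD, n = 6). The log2 fold change was -1.25 (SE 0.45, 95% interval -2.22 to -0.28, limma adjusted p = 0.151), a 2.37-fold lower level that did not pass the test. Without PN1a 1 and 2 it was -0.51 (limma adjusted p = 0.364).

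Krt18, its type I partner, had intensities of 73.0, 211, 452, 592 and 653 in PN1a 1 to 5. PN1b 1 to 6 had 879, 781, 861, 936, 771 and 639. Only PN1a 5 reached the PN1b range, at its lower end. The brightest PN1b sample was 1.46 times the dimmest, against 8.94 times in PN1a. The log2 fold change was -1.40 (SE 0.46, 95% interval -2.40 to -0.39, limma adjusted p = 0.124), 2.63-fold lower without passing the test. It was -0.53 without PN1a 1 and 2 (limma adjusted p = 0.227) and -1.20 within label ending set 1 (limma adjusted p = 0.733). A second Krt18 probe set stayed between 1.09 and 4.23 in all samples, near the lowest value of the table (log2 fold change -0.33, limma adjusted p = 0.665).

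Krt8 and Krt18 followed each other closely. Over the 11 samples their log2 intensities had a Pearson r of 0.96, and within the 6 PN1b samples of 0.73, given as a description. The Krt8 to Krt18 ratio, relative to the average sample, was 0.08 ± 0.36 in PN1a and -0.07 ± 0.29 in PN1b on the log2 scale (SD). The difference of 0.15 was smaller than this spread between samples.

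Krt19, the smallest keratin and a marker of luminal cells and ducts, had the largest log2 fold changes of the 8 keratins. In PN1a 1 to 5 its leading probe set had intensities of 37.5, 23.4, 347, 326 and 440. In PN1b 1 to 6 it had 54.2, 28.4, 9.99, 17.6, 28.2 and 13.5. PN1a 3 to 5 stood above every PN1b sample, while PN1a 1 and 2 lay inside the PN1b range. The log2 fold change was 2.63 (SE 0.75, 95% interval 1.01 to 4.26, limma adjusted p = 0.0808), a 6.20-fold difference that did not pass over all samples. Without PN1a 1 and 2 it passed at 4.09 (limma adjusted p = 7.61e-04), and it also passed without PN1a 2 alone at 3.26 (limma adjusted p = 0.0309). Within label ending set 1 it did not pass at 2.79 (limma adjusted p = 0.676). Nor did it pass with PN1a 3, 4 or 5 left out, at 2.21 to 2.31 (limma adjusted p = 0.122 to 0.160).

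The other Krt19 probe set is of the kind marked _f, whose probes can match several members of a sequence family, so signal from related keratins cannot be separated from that of Krt19. Its intensities were 17.9, 22.3, 205, 181 and 315 in PN1a 1 to 5 and 26.4, 8.11, 1.66, 6.50, 16.7 and 1.85 in PN1b 1 to 6. PN1a 3 to 5 were again far above all others, and PN1a 1 and 2 lay below PN1b 1. It rose in PN1a by 3.74 on the log2 scale (SE 0.89, 95% interval 1.82 to 5.66, limma adjusted p = 0.0446), 13.3-fold, and was the 1 keratin probe set called. The size of this fold rests in part on PN1b values near the lowest of the table, at 1.66 and 1.85. With log2(value + 16) the difference of this probe set was 2.19 (limma adjusted p = 0.0698). Its call ended within label ending set 1, where the difference was 3.95 (limma adjusted p = 0.604), and it ended when any 1 of PN1a 3, 4 or 5 or PN1b 2, 3, 4 or 6 was left out, with values of 3.27 to 3.80. Without PN1a 1 and 2 it was 5.14 (limma adjusted p = 0.00736). Both Krt19 probe sets placed PN1a 3 to 5 above the other 8 samples, with a Pearson r of 0.96 over 11 samples.

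Krt7, a type II keratin of ducts and glandular epithelia, had intensities of 16.9, 26.7, 63.6, 76.1 and 140 in PN1a 1 to 5 and of 20.4, 11.6, 12.3, 20.7, 65.8 and 49.5 in PN1b 1 to 6. PN1b 5 and 6, which share the label ending of the PN1a samples, were the highest of their group, above PN1a 1 and 2. The log2 fold change of 1.05 (SE 0.57, 95% interval -0.19 to 2.28, limma adjusted p = 0.349) did not pass. It was 1.87 without PN1a 1 and 2 (limma adjusted p = 0.125) and turned to -0.20 within label ending set 1 (limma adjusted p = 0.957). The part of the label ending in the Krt7 values was not tested further, since PN1b 5 and 6 are the only PN1b samples of that set.

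Among the basal keratins, Krt17 had the largest log2 fold changes. In PN1a 1 to 5 its leading probe set had intensities of 30.1, 80.4, 169, 261 and 151. In PN1b 1 to 6 it had 61.0, 62.2, 44.6, 37.8, 52.3 and 34.3. PN1a 2 to 5 were above every PN1b sample and PN1a 1 was below every one of them. The log2 fold change of 1.21 (SE 0.44, 95% interval 0.26 to 2.17, limma adjusted p = 0.156) did not pass over all samples. It passed without PN1a 1 at 1.68 (limma adjusted p = 0.0171) and without PN1a 1 and 2 at 1.99 (limma adjusted p = 0.00274), whereas within label ending set 1 it was 1.38 (limma adjusted p = 0.684).

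The leading Krt17 probe set carries a suffix as well (_i), and so do the others (_f and _r). Whether related genes add to the Krt17 signal, and so to its ratios, is not known. A second Krt17 probe set, of the _f kind and designed on the same transcript record, is no independent measurement. Its values were 7.21, 45.3, 160, 251 and 120 in PN1a 1 to 5 and ran from 8.22 to 32.2 in PN1b, in nearly the order of the first (Pearson r 0.99 over 11 samples). PN1a 1 was again the lowest sample of all. The log2 fold change was 2.08 (SE 0.74, 95% interval 0.49 to 3.68, limma adjusted p = 0.144), and 3.37 without PN1a 1 and 2 (limma adjusted p = 0.00169). A further Krt17 probe set stayed between 1 and 3.84 in every sample (log2 fold change -0.02, limma adjusted p = 0.986).

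Krt5 and Krt14, the partner pair of the basal layer, gave little signal in either line. Krt5 ranged from 4.35 to 8.28 in PN1a and from 2.85 to 12.2 in PN1b, with a log2 fold change of -0.33 (SE 0.35, 95% interval -1.09 to 0.42, limma adjusted p = 0.662). PN1b 5 was its lowest sample, and without it the difference was -0.65 (limma adjusted p = 0.117). Krt14 ranged from 1.01 to 2.83 and from 1.15 to 4.44, with -0.39 (SE 0.36, 95% interval -1.16 to 0.38, limma adjusted p = 0.606) and -0.78 without PN1a 1 and 2 (limma adjusted p = 0.351). Krt15, known from basal cells of stratified epithelia, ranged from 1.18 to 5.06 and from 1.38 to 4.50, with 0.14 (SE 0.38, 95% interval -0.68 to 0.97, limma adjusted p = 0.878) and 0.73 without PN1a 1 and 2 (limma adjusted p = 0.317). By mean log2 intensity the probe sets of Krt14 and Krt15 lay at the 9.15 and 13.0 percentiles of all probe sets and that of Krt5 at the 46.4 percentile. The table carries no detection calls, so whether these probe sets were above background is not known, and a dim probe set does not show that its transcript was scarce. Within label ending set 1 the Krt5 difference turned to 0.50 (limma adjusted p = 0.775).

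**Figure D2:**
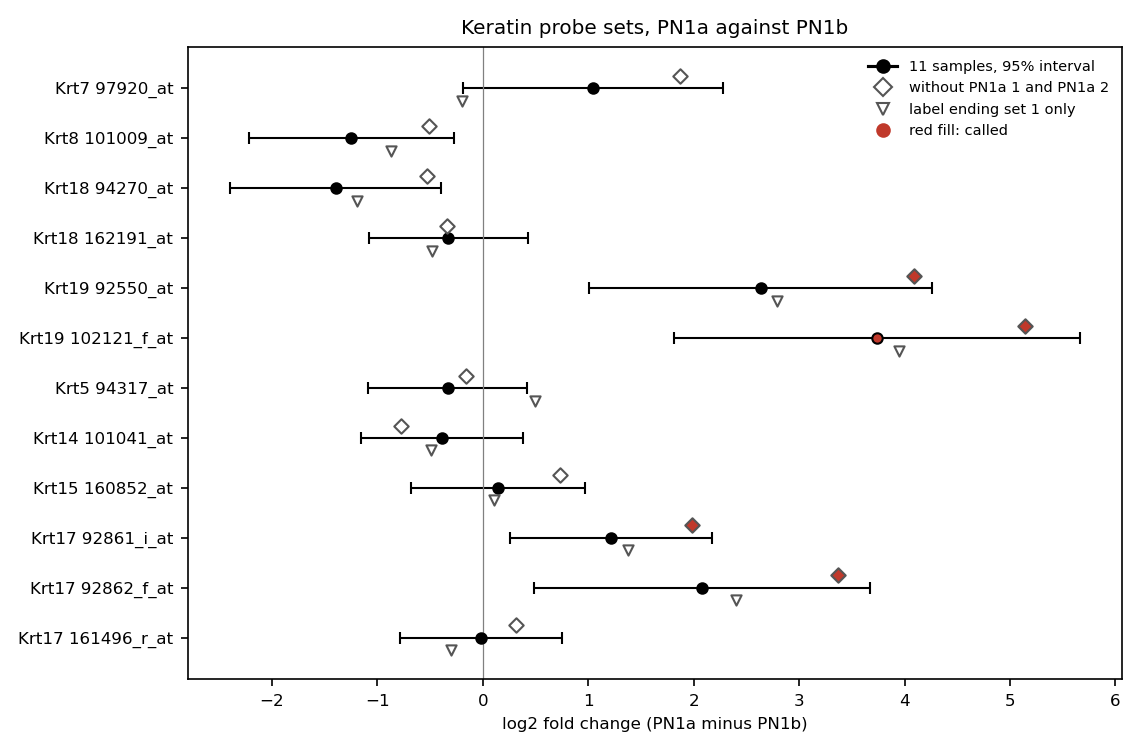
Log2 fold change of PN1a minus PN1b for the 12 keratin probe sets (x axis), as points with 95% intervals over 11 samples, diamonds without PN1a 1 and 2, triangles within label ending set 1 and red fill where called. With all samples 1 probe set of Krt19 is red, without PN1a 1 and 2 the 4 brighter probe sets of Krt19 and Krt17 are, and Krt8 and Krt18 lie below 0 in all 3 settings.

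Leaving out PN1a 1 and 2 changed what was called among the keratins. Both Krt19 probe sets and both brighter Krt17 probe sets then passed, 4 of 12, all higher in PN1a, beside 0.684% of all probe sets called higher and 0.66% called lower. These 4, which stand for Krt19 and Krt17 alone, had PN1a 3 to 5 above every PN1b sample. Over all probe sets 3.96% were above and 4.55% below. As the 4 were called on these same samples, their separation is no added support. Krt8 and Krt18 were called in none of the settings. Within label ending set 1, which leaves PN1b with 2 samples, 0 of the 12 were called, beside 0.0483% of all probe sets called higher and 0.0966% called lower. With the label ending set as a block it was also 0, beside 0.0966% and 0.153%. The methods' t-test at its own threshold called 1 of the 12 higher, the _f probe set of Krt19, and 0 lower, beside 2.18% and 3.56% of all probe sets.

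Ratios of luminal to basal keratins were formed per sample after each probe set had been centred on its mean over the 11 samples, so a value of 0 is the average sample and levels of different probe sets were not set against each other. No test was run on these ratios. The mean of all 4 luminal minus that of all 4 basal keratins was -1.25, -0.69, 0.62, 0.44 and 1.16 on the log2 scale in PN1a 1 to 5 and 0.25, -0.86, -0.11, -0.14, 0.79 and -0.20 in PN1b 1 to 6. The groups overlapped, with means of 0.05 ± 0.99 and -0.05 ± 0.55 (SD), and PN1a 1 and 2 had the lowest ratios of PN1a. The difference of 0.10 was 0.79 without PN1a 1 and 2 and -0.24 within label ending set 1. This mean joins luminal keratins whose log2 fold changes differed in sign (below 0 for Krt8 and Krt18, above 0 for Krt19 and Krt7) with basal keratins of which Krt5, Krt14 and Krt15 were dim.

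Among the 16 luminal to basal pairs, Krt8 to Krt17 varied least within each line. It was -1.49, -1.08, -1.26, -1.54 and -1.32 in PN1a 1 to 5 and 1.13, 0.99, 1.42, 1.37, 0.96 and 0.86 in PN1b 1 to 6, relative to the average sample on the log2 scale. Every PN1a sample was below every PN1b sample, PN1a 1 and 2 sat with the other PN1a samples, and PN1b 5 and 6 sat with the other PN1b samples. Means were -1.34 ± 0.18 and 1.12 ± 0.23 (SD), a difference of -2.46 or 5.50-fold. The difference was -2.25 within label ending set 1 and -2.50 without PN1a 1 and 2.

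Krt18 to Krt17 gave a similar picture. Its values were -1.62, -1.51, -1.48, -1.72 and -0.79 in PN1a 1 to 5 and 0.95, 0.75, 1.37, 1.73, 0.98 and 1.32 in PN1b 1 to 6. Again the groups did not overlap, with PN1a 5 nearest to PN1b. Means were -1.42 ± 0.37 and 1.19 ± 0.36 (SD), a difference of -2.61 or 6.09-fold, and -2.57 within label ending set 1. Differences of other probe sets to Krt17 give the background for both ratios: of 12421, 4.91% had every PN1a sample below every PN1b sample, and 0.0161% had every PN1a sample above. Non-overlap with Krt17 as the reference was therefore not confined to Krt8 and Krt18, and both ratios share the Krt17 values. Of 24 other basal and myoepithelial markers, 3 had a log2 fold change above 0. The list median was -0.45, and -0.07 within label ending set 1. Over the 11 samples Krt17 was closest to the luminal marker Muc1 (Pearson r 0.94). Whether these ratios tell which layer prevails was not tested.

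Of all 16 luminal to basal pairs, 9 were lower in PN1a and 7 higher, and 3 did not overlap between the groups. The third pair was Krt8 to Krt15, at -1.72 to -0.22 in PN1a and -0.20 to 1.54 in PN1b, which leaves hardly any gap and rests on a dim probe set, beside 0.644% of all probe sets separated this way against Krt15. Krt7 to Krt17 overlapped, with -0.09 ± 0.68 in PN1a and 0.08 ± 1.20 in PN1b (SD). Krt19 to Krt17 overlapped too, with 0.78 ± 1.27 and -0.65 ± 0.65 (SD), and PN1a 2 had the second lowest of the 11 values.

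**Figure D3:**
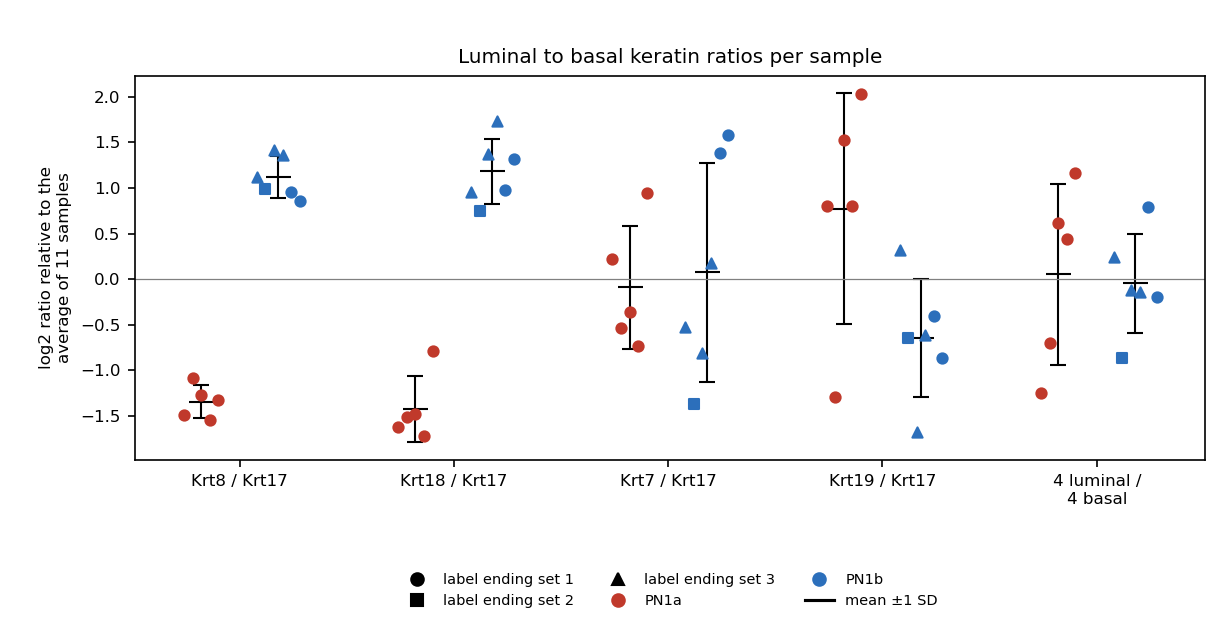
Log2 ratios of luminal to basal keratins relative to the average of 11 samples (y axis) for 4 pairs and for all 4 luminal against all 4 basal keratins, with 1 point a sample, PN1a in red, PN1b in blue, marker shape by label ending set and bars for the mean ±1 SD. Krt8 to Krt17 lies at -1.54 to -1.08 in PN1a and 0.86 to 1.42 in PN1b, while the ratio over all 8 keratins overlaps between the lines.

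Within the luminal keratins, Krt19 to Krt18 also separated the lines. It was 2.43, 0.22, 3.01, 2.53 and 2.82 in PN1a 1 to 5 and -0.63, -1.39, -3.04, -2.34, -1.38 and -2.18 in PN1b 1 to 6. The means differed by 4.03 on the log2 scale without overlap, with PN1a 2 closest to PN1b. Differences to Krt18 were above in every PN1a sample for 15.4% of all probe sets, so separation against Krt18 was common. Over the 11 samples Krt18 and Krt19 had a Pearson r of -0.04, while Krt17 and Krt19 had 0.88, Krt7 and Krt19 0.71 and Krt7 and Krt17 0.64. Within the 6 PN1b samples the order was another, with 0.82 for Krt8 and Krt17, 0.77 for Krt17 and Krt19, 0.06 for Krt7 and Krt19 and -0.34 for Krt7 and Krt17. Correlations over the 11 samples include the difference between the lines and the low intensities of PN1a 1.

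Epithelial genes other than keratins were set beside these values. The list of 15 measured pan-epithelial genes (adhesion, tight junction and epithelial transcription factor genes) had 0 called in either direction, beside 0.836% of all genes called higher and 1.84% lower, and a median log2 fold change of -0.60, beside -0.03 over all genes. That median was -0.35 without PN1a 1, -0.28 without PN1a 1 and 2 and -0.27 within label ending set 1. Unadjusted limma p was under 0.05 for 5 of the 15, and the methods' t-test at its own threshold called 1. Of the 15, 4 were above 0, and 2 had every PN1a sample below every PN1b sample, beside 2.38% of all probe sets. These 2 were Ehf at -1.34 (limma adjusted p = 0.0588) and Cd24a at -0.92 (limma adjusted p = 0.0949). The list mean relative to the average sample was -1.41 in PN1a 1, -0.18 to 0.20 in the other PN1a samples and 0.05 to 0.45 in PN1b. Krt8 minus this mean differed by -0.67 between the lines and Krt18 by -0.82, both with overlap, and without PN1a 1 and 2 by -0.21 and -0.23. Krt17 minus this mean ran from 0.19 to 1.71 in PN1a and from -1.17 to -0.47 in PN1b, without overlap, a difference of 1.79 or 3.45-fold (1.76 within label ending set 1 and 2.28 without PN1a 1 and 2), beside 5.26% of other probe sets separated this way. Krt19 differed by 3.21, with PN1a 2 inside the PN1b range.

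Other markers of the luminal layer, 21 measured genes without keratins, had 1 called higher, 1 called lower and a median of 0.06. Over all genes 0.836% were called higher and 1.84% lower, with a median of -0.03. Cited1, a transcriptional coregulator of luminal cells, rose by 1.88 (limma adjusted p = 0.0282) and Ceacam1, a luminal adhesion molecule, fell by 2.24 on the log2 scale (limma adjusted p = 0.0358). Gata3, which specifies luminal cells, had 1.44 (limma adjusted p = 0.0561) and the apical mucin Muc1 had 1.41 (limma adjusted p = 0.0736), neither passing. Within label ending set 1 neither Cited1 (1.55, limma adjusted p = 0.676) nor Ceacam1 (-1.52, limma adjusted p = 0.684) was called, and without PN1a 1 and 2 Cited1 was called at 2.51 while Ceacam1 was not at -1.59 (limma adjusted p = 0.00367 and 0.121).

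Other basal and myoepithelial markers, 24 measured genes, had 0 called higher, 2 called lower and a median of -0.45. The shares over all genes were 0.836% higher and 1.84% lower, with a median of -0.03. Trp63, the transcription factor of basal cells, fell by 1.55 on the log2 scale (limma adjusted p = 0.0262) and the tropomyosin gene Tpm2 fell by 0.97 (limma adjusted p = 0.0476). The smooth muscle genes Mylk and Myh11 had -1.49 (limma adjusted p = 0.0637) and -2.10 (limma adjusted p = 0.0817). Trp63 was below every PN1b sample in all 5 PN1a samples. Without PN1a 1 and 2 Trp63 was -1.48 (limma adjusted p = 0.0157), and Tpm2 was no longer called at -1.07 (limma adjusted p = 0.0968). Within label ending set 1 the list median was -0.07 and the Trp63 difference -1.24 (limma adjusted p = 0.676), with no member called.

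Of 12 measured genes that anchor keratins to desmosomes and hemidesmosomes or link them to other filaments, 1 rose and 1 fell. Among all genes 0.836% were called higher and 1.84% lower. Plec, the plakin that ties keratins to hemidesmosomes, rose by 0.98 (limma adjusted p = 0.0163), and Perp, a desmosomal membrane protein and p53 target, fell by 1.39 on the log2 scale (limma adjusted p = 0.0310). Ppl, another plakin, had -0.63 (limma adjusted p = 0.102), and Dsp and Jup, core desmosomal plaque genes, had 0.04 and 0.16. Within label ending set 1 Plec was 0.76 (limma adjusted p = 0.668) and Perp -1.14 (limma adjusted p = 0.676), and without PN1a 1 and 2 Perp was no longer called at -0.97 (limma adjusted p = 0.0693). Cornified envelope genes (12 measured) and other intermediate filament genes (13 measured) had 0 called, with medians of 0.25 and 0.19, of which the first turned to -0.03 without PN1a 1 and 2. Unadjusted limma p was under 0.05 for 2 and 4 of them, and the methods' t-test at its own threshold called 1 in each list. Lor, a cornified envelope protein gene, had 0.80 (limma adjusted p = 0.0694) and the neural filament gene Nes had 1.19 (limma adjusted p = 0.0701).

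The array held 38 probe sets for 25 other keratins, of which 1 was called and 1 other was completely separated. Over all probe sets 0.869% were called higher and 1.62% lower, and 1.58% were separated above and 2.38% below. With so few members these counts do not set the other keratins apart from all probe sets. Krt13, a type I keratin of internal stratified epithelia, rose by 1.64 (SE 0.32, limma adjusted p = 0.0175) on an _f probe set whose intensities were 2.51 to 7.41 in PN1a and 1.03 to 2.62 in PN1b. It was 1.01 within label ending set 1 (limma adjusted p = 0.676). The 2 other Krt13 probe sets had 1.0 (limma adjusted p = 0.0969) and 0.13 (limma adjusted p = 0.884). Krt6a, a type II keratin and a partner of Krt17 in activated epidermis, was above every PN1b sample in all PN1a samples on 1 probe set, at 9.99 to 12.6 against 6.15 to 9.45 (log2 fold change 0.52, limma adjusted p = 0.110), but not on the other (0.69, limma adjusted p = 0.317).

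**Figure D4:**
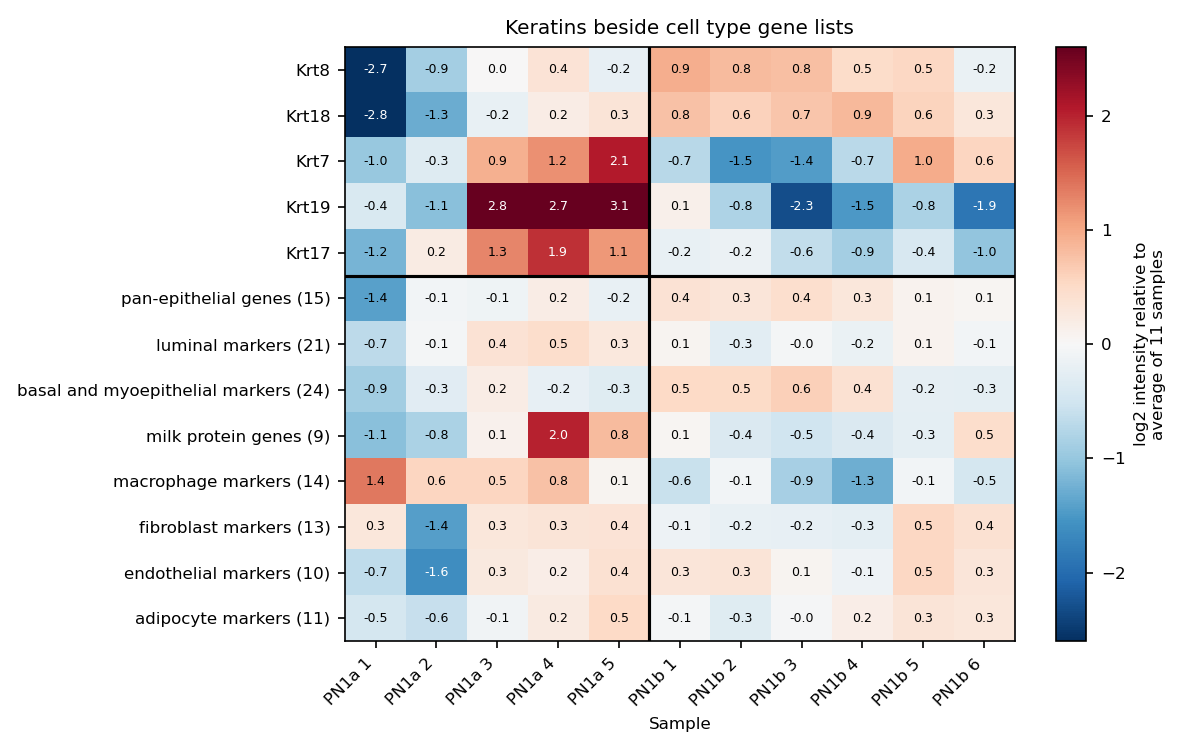
Log2 intensity relative to the average of 11 samples (colour and number) for the 5 brighter keratins and for the mean of 8 gene lists (number of measured genes in parentheses), with samples on the x axis. PN1a 1 is low for Krt8, Krt18 and the pan-epithelial genes, and Krt19 is high in PN1a 3 to 5 alone.

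Markers of other cells of the gland were set beside these values. Macrophage markers had 3 of 14 called higher (Tyrobp at 1.76, Cd68 at 1.11 and C1qb at 2.20), beside 0.836% of all genes, a median of 1.16 and sample means of the list from 0.06 to 1.38 in PN1a and from -1.26 to -0.08 in PN1b. Without PN1a 1 and 2 none of the 3 was called, with log2 fold changes of 1.57 for Tyrobp, 1.22 for Cd68 and 1.55 for C1qb (limma adjusted p = 0.114, 0.0726 and 0.189) and a list median of 1.0. Within label ending set 1 none was called either (limma adjusted p = 0.634 to 0.676), and the median was 0.76. PN1a 1, the sample with the lowest Krt8 and Krt18, had the highest macrophage mean and the lowest pan-epithelial mean. Fibroblast and endothelial lists were lowest in PN1a 2, at -1.44 and -1.62, and had 0 of 13 and 0 of 10 called by limma or by the methods' t-test, with unadjusted limma p under 0.05 for 0 and 1. Their part in the keratin differences was not tested. Krt8 to Krt17 and Krt18 to Krt17 in PN1a 1 were within the range of the other PN1a samples. How the cell composition of the glands bears on these ratios was not tested.

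Genes whose pattern over the 11 samples was most like that of each keratin were listed by Pearson r of log2 intensity among 4596 probe sets with an SD of at least 0.5, as a description. Krt18 was closest to Phlda1 (0.971), the surface glycoprotein gene Cd24a (0.967) and the tight junction gene Ocln (0.963). Krt8 was closest to Cdcp1 (0.963), Krt18 (0.959) and Lgi4 (0.957). Krt19 was closest to the mucus-associated gene Fcgbp (0.976), Tlcd4 (0.921) and Bdnf (0.905). Krt17 was closest to Muc1 (0.936), Fcgbp (0.877) and Krt19 (0.876), and none of these 3 is a measured basal marker. Krt7 was closest to Acot9 (0.951 and 0.939 on 2 probe sets) and AW112010 (0.941). For the dim probe sets of Krt5, Krt14 and Krt15 the closest genes were Ube2k (0.924), Penk (0.874) and Dusp8 (0.867).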

How the data were processed

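Whole mammary glands with lesions of either line (5 PN1a and 6 PN1b samples) were profiled on MG_U74Av2 arrays of Affymetrix. The authors ran dChip, whose version the sources used here do not give, with its PM-MM model, quantile normalized the arrays and deposited a linear intensity for each probe set, from which all work here started. Of 12488 probe sets, 66 array controls were left out. The platform annotation gave 1 symbol for 10833 tested probe sets, several for 396 and none for 1193. A gene is led by its probe set with the highest mean.

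Log2 of the deposited intensity, without pseudocount, was fitted with limma 3.58.1 in R 4.3.3 (lmFit, eBayes, two-sided, Benjamini-Hochberg over 12422 probe sets), after the steps had been tested on simulated data. Python 3.11.15 with matplotlib 3.10.9 drew the figures. Groups came from the labels, which do not say whether samples are separate mice, so p-values rest on a spread between samples that may be technical. The number of arrays limits the precision. No pair of samples shared more than 1.24% of values.

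Members and lists were chosen with earlier results of these data known. Named genes are all members, other keratins called or separated, the called and up to 3 next genes of each list, and the 3 genes most like each member. Dsp, Jup, Epcam and Acta2 and further probe sets of Krt6a and Krt13 were added after their values were seen, and not every gene the rule takes is named. Alternatives were the methods' t-test, the label ending set as fixed or random block or set 1 alone, other scalings, log2(value + 16), a filter on dim probe sets, eBayes with trend and robust, samples left out, and other members of the ratio.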

Additional observations from a re-analysis of the deposited data

Results flagged for a closer look

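Krt5 in PN1b 5 lay far from the other samples of its group. Its intensity was 2.85, against 7.94 to 12.2 in the other PN1b samples, and the gap exceeded Dixon's 95% critical value. This was 1 of 26 groups checked, and chance alone marks about 1 in 20.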

How the results depend on the processing

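The number of keratin probe sets called higher in PN1a, 1 with all samples, was 0 with the label ending set as a fixed block, within label ending set 1, with it as a random block, with log2(value + 16), with eBayes trend and robust, and with the methods' t-test after Benjamini-Hochberg. It was 4 without PN1a 1 and 2, and 0 to 3 with each sample left out in turn. At its own threshold the methods' t-test called 1. None was called lower in any setting. The luminal to basal ratio difference of 0.10 was 0.79 without PN1a 1 and 2 and became -0.24 with the fixed block and within label ending set 1, -0.14 with log2(value + 16), -0.69 without Krt19 and -0.18 to 0.43 with each sample left out. With pairs of genes chosen after the data were seen it was -0.95 (basal by Krt17 alone) and -2.53 (Krt8 and Krt18 against Krt17). Among single probe sets Krt7 turned to -0.20 and Krt5 to 0.50 with the fixed block and within set 1. Krt15 ran from -0.12 to 0.41 with samples left out. The dimmest Krt17 probe set turned to 0.041 when samples were centred, 0.0014 with log2(value + 16) and 0.32 without PN1a 1 and 2, and ran from -0.30 to 0.17 with samples left out. Causes were not tested. No paired analysis was possible because the labels give the groups no shared replicate numbers. The call of Krt19 rests on PN1a 3 to 5, and label ending set 1 holds only 2 PN1b samples. The brighter Krt17 probe sets were called only where PN1a 1 was left out. For these probe sets PN1a 1 was below every PN1b sample and PN1a 2 to 5 were above every one. Values near the lowest intensities limit Krt14, Krt15 and, in PN1b, the _f probe set of Krt19.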

Other observations

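Milk protein genes, products of differentiated luminal cells, had 1 of 9 called, with Glycam1 at a log2 fold change of -4.16 (limma adjusted p = 0.0109) and Csn3 at 2.10 (limma adjusted p = 0.0583). Unlike Glycam1, 7 of the 9 were above 0, and the list median was 0.45. Which cells of the gland gave the Glycam1 signal was not tested. Beside all lists here, 0.836% of all genes were called higher and 1.84% lower. Glycam1 intensities were 1.06 and 1.61 in PN1a 1 and 2, near the lowest value. Without these samples Glycam1 was still called, at -2.7 (limma adjusted p = 0.0069). The Glycam1 call ended with the label ending set as a fixed block, at -3.59 (limma adjusted p = 0.351), and within set 1 (limma adjusted p = 0.632). The mean of the milk protein genes was highest in PN1a 4 at 2.00 and lowest in PN1a 1 at -1.09, relative to the average sample. PN1a 4 was also the sample with the highest Krt17 and Krt8 of its group, and no relation was tested. Adipocyte markers had 1 of 11 called (Lpl, -1.81, limma adjusted p = 0.0415). Lpl was -0.94 without PN1a 1 and 2, and its call ended with the fixed block, at -1.76 (limma adjusted p = 0.453), and within set 1 (limma adjusted p = 0.676). Lymphocyte markers had 1 of 12 called, Pou2af1 at -1.86 (limma adjusted p = 1.28e-04), with 2 of 12 above 0 and a median of -0.42. Pou2af1 stayed called with the fixed block at -1.75 (limma adjusted p = 0.0213) and without PN1a 1 and 2 at -1.91 (limma adjusted p = 0.00107). Within set 1 Pou2af1 was also called at -1.75 (limma adjusted p = 0.0485). The methods describe removal of lymph nodes for flow cytometry and do not mention it for the arrays. Skeletal muscle markers had 0 of 13 called by limma and by the methods' t-test (unadjusted limma p under 0.05 for 1), and a median of -0.01.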
